A study of Mus musculus with 4 samples.

Results

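The actin genes Actc1, Acta1, Acta2, Actg2, Actb and Actg1 and the actin partners Tagln, Tagln2, Cnn1 and Myh11 were followed in ribosome profiling data of mouse hearts. They are the 10 rows, of 55382 genes in the deposited tables, that carry these gene symbols. Each symbol stood on 1 Ensembl gene, and all 10 passed the filter on low values. KO hearts came from NAT10-CKO mice and WT hearts from NAT10-FF mice, all taken on day 15 after birth and lysed with cycloheximide, which holds ribosomes on the RNA. NAT10 is an enzyme that acetylates RNA. Each group has 2 libraries, and all 4 carry the same batch label. The labels do not spell out the alleles, a Cre driver or whether each library is a separate animal. The p-values therefore measure the spread between libraries, which may be technical.

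Actin is the protein of the thin filaments of muscle and of the cytoskeleton of every cell. Mammals carry 6 actin genes whose proteins are almost alike. Cardiac and skeletal alpha-actin build sarcomeres, vascular and enteric smooth muscle actin build the contractile apparatus of vessels and gut, and beta- and gamma-actin build the cytoskeleton. Skeletal and smooth muscle alpha-actin are used by the developing heart before cardiac alpha-actin takes over, and vascular smooth muscle actin also marks activated fibroblasts. Transgelin and calponin bind the actin filaments of smooth muscle, and smooth muscle myosin pulls on them.

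Footprint levels are the authors' FPKM, fragments scaled by gene length and library size, so genes can be compared with each other. Dividing the FPKM by the authors' translation efficiency (TE) gave the RNA level that must have formed its denominator, called the implied RNA level. Differences are KO minus WT on the log2 scale from limma, run over 15031 genes for log2(FPKM + 1) and over 12529 genes for RNA and TE, with Benjamini-Hochberg adjusted p called at 0.05. The median change of all tested genes was 0.36 for footprints, 0.22 for RNA and 0.15 for TE.

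Depth in reads is unknown, since FPKM keeps no read totals. Each library held 16425 to 16900 genes with footprints, and mitochondrial tRNA genes took 48.9% to 57.0% of its summed FPKM. Nat10 itself read 40.01 and 52.1 FPKM of footprints in KO, against 77.3 and 73.9 FPKM in WT. The labels name cardiomyocytes, and all 10 cardiomyocyte markers passed the filter, with a summed footprint level of 131560 and 176678 FPKM in KO and 156458 and 163788 FPKM in WT. Single markers were not level: 7 of the 10 lay wholly lower in KO in footprints and 6 in RNA, with medians of -0.49 and -0.42. Over all tested genes 12.1% lay wholly lower in footprints and 18.6% in RNA. Myh6, the heart's alpha myosin heavy chain, differed by -0.99 in footprints, and Myl2, a ventricular myosin light chain, by -0.53 (limma adjusted p = 0.226 and 0.388). Nppa, the atrial natriuretic peptide gene, was the marker that rose in both measures (limma adjusted p = 0.0407 for footprints and 0.0124 for RNA). The sources do not say how reads that fit several actin genes were counted, so levels of single actin genes are uncertain throughout. In these whole-heart samples fewer cells of a type and less RNA per cell cannot be told apart.

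In KO hearts Tagln rose in footprints, and Acta1, Tagln and Tagln2 rose in the implied RNA level. No member fell by the test in either measure, and none changed in TE. The called members were 1 of 10 for footprints, where 0.253% of all tested genes were called higher in KO and 0.126% lower. For RNA they were 3 of 10, against 4.2% of all tested genes called higher and 1.53% lower. Those 3 RNA calls held whichever library was left out, but not without limma's trend of variance with level (adjusted p = 0.0528 for Acta1, 0.0729 for Tagln2 and 0.0875 for Tagln). Both KO libraries lay above both WT libraries for 5 members and below for 3 in footprints, where 39.5% of all tested genes lay wholly above and 12.1% wholly below. For RNA these numbers were 7 and 3, against 44.2% and 18.6% of all tested genes. By unadjusted p under 0.05, 4 members were higher and 1 lower in footprints (13.5% and 3.8% of all tested genes), and 5 were higher and 1 lower in RNA (21.1% and 7.17%). Scaling each library by median ratios turned the RNA calls over all genes to 327 higher and 309 lower, against 526 and 192 unscaled, and the footprint calls to 40 and 30, against 38 and 19. The median change of the 10 members was 1.05 for footprints and 0.87 for RNA.

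**Figure D1:**
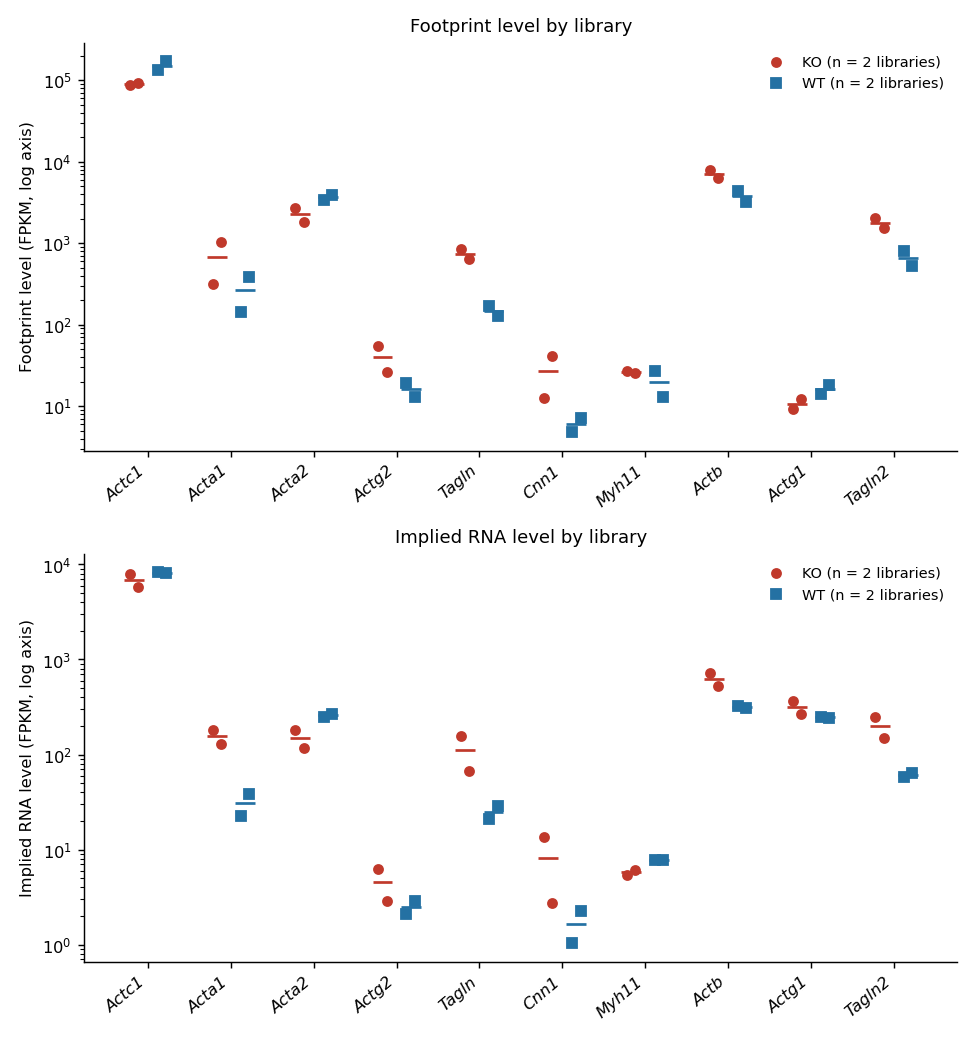
Footprint level (top) and implied RNA level (bottom) of the 10 genes in FPKM on log axes, with KO libraries as circles, WT libraries as squares and bars at the mean of 2 libraries. Actc1 stood above every other member in all libraries, and Tagln and Tagln2 were higher in both KO libraries than in both WT libraries in each panel.

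Actc1 (ENSMUSG00000068614, chr2:114047282-114052875, a protein-coding gene; positions here and below are RefSeq gene spans in GRCm38.p6) codes for cardiac alpha-actin, the main actin of the adult heart. It had the highest footprint level of all protein-coding genes in each of the 4 libraries. Its footprint level was 86846 and 92596 FPKM in KO, against 132102 and 171574 FPKM in WT. The KO values were the lower ones, without overlap. The difference of -0.75 (SE 0.42, 95% interval -1.77 to 0.28) did not pass (limma adjusted p = 0.393). Its RNA level was 7861 and 5768 FPKM in KO and 8239.6 and 8120.01 FPKM in WT, which differ by -0.28 (interval -1.21 to 0.64, limma adjusted p = 0.662). Most cardiomyocyte markers were lower in KO beside it, as given above, and their part in these differences was not tested.

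Acta1 (ENSMUSG00000031972, chr8:123891758-123894775) codes for skeletal alpha-actin, a gene of the fetal heart and of skeletal muscle that is also known to return under load. Its RNA level was 181 and 129 FPKM in KO, against 22.7 and 38.4 FPKM in WT, or 155 ± 37.0 against 30.5 ± 11.1 (SD, n = 2). The groups stood well apart, and the rise was 5.18-fold (log2 2.37, SE 0.31, limma adjusted p = 0.0231). Footprints stood at 313 and 1024 FPKM in KO, against 142 and 389 FPKM in WT. Here the groups overlapped, since KO replicate 1 lay below WT replicate 2. The footprint difference of 1.26 (SE 0.68, interval -0.42 to 2.95) did not pass (limma adjusted p = 0.383). It was 0.41 without KO replicate 2, 0.54 without WT replicate 1, 1.98 without WT replicate 2 and 2.12 without KO replicate 1.

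Promoters are shown for Acta1, Actc1 and Actg1. Of the 6 members searched, they held an exact match to a site known to drive muscle genes. RefSeq's promoter table (GRCm38.p6, 250 bases before to 50 after each start) holds 6 of the 10 members: Actc1, Acta1, Acta2, Actg1, Cnn1 and Tagln2. The CArG box, the 10-base site of serum response factor, which drives muscle and cytoskeletal genes, was searched on both strands by its consensus. It stood in the 250 bases before the start of Acta1, Actc1 and Actg1, and in 1.47% of the 32851 promoters. The consensus reads the same on both strands. The last 120 bases before each start are printed 5′ to 3′ on the gene's strand, which is the minus strand for all 3, with the CArG box in capitals. They lie at chr8:123894776-123894895, chr2:114052876-114052995 and chr11:120348496-120348615.
Acta1: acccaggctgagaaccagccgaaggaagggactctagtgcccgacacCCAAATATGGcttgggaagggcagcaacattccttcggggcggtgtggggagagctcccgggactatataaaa
Actc1: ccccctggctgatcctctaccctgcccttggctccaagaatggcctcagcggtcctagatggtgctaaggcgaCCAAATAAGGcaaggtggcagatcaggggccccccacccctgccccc
Actg1: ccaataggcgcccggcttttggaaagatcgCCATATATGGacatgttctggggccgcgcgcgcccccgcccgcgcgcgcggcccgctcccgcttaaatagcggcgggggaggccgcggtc
Counted from the annotated start, the box lay at -73 to -64 in Acta1, -47 to -38 in Actc1 and -90 to -81 in Actg1. TATAAA, searched on the given strand only, stood in the Acta1 and Actc1 promoters and in 8.32% of all promoters. Its first base lay at -7 in Acta1 and at base 34 after the start in Actc1, beyond the printed stretch. The RNA change of the genes with the exact box was 2.37 for Acta1, -0.28 for Actc1 and 0.35 for Actg1, of which the first passed the test. No exact CArG box stood in the 250 bases before the start of Acta2, Cnn1 or Tagln2. For Acta2 and Cnn1 the start used lies inside the gene span printed here. The last 120 bases before it lie at chr19:34255374-34255493, within the Acta2 span, and at chr9:22099133-22099252, partly within the Cnn1 span. Near matches, such as ccctatatgg before Acta2, were not counted. The promoters of Actb, Actg2, Tagln and Myh11 were not searched.

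Acta2 (ENSMUSG00000035783, chr19:34240336-34255585) codes for vascular smooth muscle actin. Footprints of the gene read 2721 and 1816 FPKM in KO, against 3365 and 3959 FPKM in WT, and its RNA level was 179 and 116 FPKM in KO, against 251 and 267 FPKM in WT. In each measure the KO values were the lower ones, without overlap. The differences of -0.72 for footprints (SE 0.28, limma adjusted p = 0.277) and -0.84 for RNA (SE 0.27, limma adjusted p = 0.104) did not pass. With a library left out, the RNA difference was -1.16 to -0.53.

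Actg2 (ENSMUSG00000059430, chr6:83512909-83536251), the enteric smooth muscle actin, was scarce. In footprints it measured 54.5 and 26.0 FPKM in KO, against 19.2 and 13.0 FPKM in WT, and its RNA level was 6.23 and 2.89 FPKM in KO, against 2.10 and 2.87 FPKM in WT. The groups did not overlap in either measure, although KO replicate 2 and WT replicate 2 were almost equal in RNA. Neither difference passed, at 1.20 for footprints (SE 0.49, limma adjusted p = 0.291) and 0.79 for RNA (SE 0.42, limma adjusted p = 0.262). With a library left out, the RNA difference was 0.24 to 1.34.

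Tagln (ENSMUSG00000032085, chr9:45929628-45936058) codes for transgelin, also called SM22, an actin-binding protein of smooth muscle. Its footprint level was 844 and 641 FPKM in KO, against 169 and 128 FPKM in WT. Both KO libraries stood far above both WT libraries. The rise was 4.97-fold on the log2(FPKM + 1) scale (log2 2.31, limma adjusted p = 0.0407), with means of 742 ± 143 FPKM in KO and 149 ± 29.1 FPKM in WT (SD, n = 2). With any single library left out, the log2 change was 2.11 to 2.51. No tested gene at all passed in those footprint fits, so they cannot show whether the Tagln call holds. The call was lost with median-ratio scaling (1.94, adjusted p = 0.0684). The RNA level was 156 and 66.7 FPKM in KO, against 20.9 and 28.7 FPKM in WT, a rise of 4.17-fold (log2 2.06, SE 0.41, limma adjusted p = 0.0443). Without KO replicate 1 the log2 change was 1.45, and without KO replicate 2 it was 2.67. In RefSeq Tagln shares 2480 bases with Pcsk7, which read 36.5 and 16.1 FPKM in KO and 17.3 and 14.0 FPKM in WT, far below Tagln.

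Cnn1 (ENSMUSG00000001349, chr9:22099221-22109221) codes for calponin, which binds actin and damps the myosin motor in smooth muscle. It had the lowest footprint level of the members in WT, at 4.82 and 7.21 FPKM, against 12.5 and 41.6 FPKM in KO. Its RNA level was 13.6 and 2.77 FPKM in KO, against 1.03 and 2.24 FPKM in WT. All KO values lay above all WT values, but the KO libraries stood in opposite order in the measures: replicate 1 was the higher in RNA and replicate 2 in footprints. Neither the footprint difference of 1.79 (SE 0.67, 0.96 to 2.62 with a library left out, limma adjusted p = 0.265) nor the RNA difference of 2.01 (SE 0.75, limma adjusted p = 0.143) passed. The RNA difference was 3.16 without KO replicate 2, 2.57 without WT replicate 2, 1.45 without WT replicate 1 and 0.86 without KO replicate 1.

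Myh11 (ENSMUSG00000018830, chr16:14194527-14292188) codes for smooth muscle myosin heavy chain, the motor of mature smooth muscle. Footprints stood at 26.9 and 25.5 FPKM in KO, against 26.9 and 13.1 FPKM in WT, and the groups overlapped. Its RNA level was 5.44 and 6.03 FPKM in KO, against 7.74 and 7.70 FPKM in WT, lower in both KO libraries. The differences of 0.46 for footprints (interval -0.70 to 1.61, limma adjusted p = 0.634) and -0.43 for RNA (interval -0.98 to 0.12, limma adjusted p = 0.264) did not pass. Tagln therefore stood at 31.3 and 25.2 times the Myh11 footprint level in KO, against 6.29 and 9.81 times in WT. The same ratio in RNA was 28.6 and 11.1 in KO, against 2.696 and 3.72 in WT. With 2 libraries per group, the exact two-sided permutation test of such a ratio cannot go below p = 0.333, which is the value both gave.

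Actb (ENSMUSG00000029580, chr5:142903115-142907976) codes for beta-actin of the cytoskeleton. Footprints of the gene read 7834 and 6296 FPKM in KO, against 4364 and 3218 FPKM in WT, and its RNA level was 712 and 528 FPKM in KO, against 326 and 311 FPKM in WT. Both KO libraries lay above both WT libraries in each measure, but neither the footprint difference of 0.91 (SE 0.27, limma adjusted p = 0.219) nor the RNA difference of 0.94 (SE 0.25, limma adjusted p = 0.0739) passed. With a library left out, the RNA difference was 0.73 to 1.16.

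Actg1 (ENSMUSG00000062825, chr11:120345687-120348495) codes for gamma-actin, the partner of beta-actin in the cytoskeleton. Its RNA level was 366 and 269 FPKM in KO, against 251 and 242 FPKM in WT. In footprints it measured only 9.12 and 12.3 FPKM in KO, against 14.3 and 18.4 FPKM in WT. The groups separated in opposite directions, higher in KO for RNA and lower in KO for footprints. The RNA difference of 0.35 (SE 0.24, limma adjusted p = 0.374) and the footprint difference of -0.57 (SE 0.45, limma adjusted p = 0.534) did not pass. With a library left out, the RNA difference was 0.13 to 0.57. Actb stood at 1.94 and 1.96 times the Actg1 level in KO for RNA, against 1.299 and 1.29 times in WT, while in footprints the ratio was 859 and 512 in KO, against 306 and 175 in WT. The gamma-actin pseudogene row Actg-ps1 read 1.76 FPKM in KO replicate 1 and was listed at 0 in the other libraries.

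Tagln2 (ENSMUSG00000026547, chr1:172500246-172507375) codes for transgelin 2, the transgelin of non-muscle cells. Its RNA level was 248 and 148 FPKM in KO, against 58.3 and 63.8 FPKM in WT, a rise of 3.14-fold (log2 1.65, SE 0.28, limma adjusted p = 0.0347). Its footprint level was 2047 and 1532 FPKM in KO, against 792 and 520.2 FPKM in WT. Both KO libraries lay well above both WT libraries. The footprint difference of 1.46 (SE 0.29, interval 0.74 to 2.18) did not pass (limma adjusted p = 0.145). It passed when small RNA genes and unnamed gene models were not tested (adjusted p = 0.0360).

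**Figure D2:**
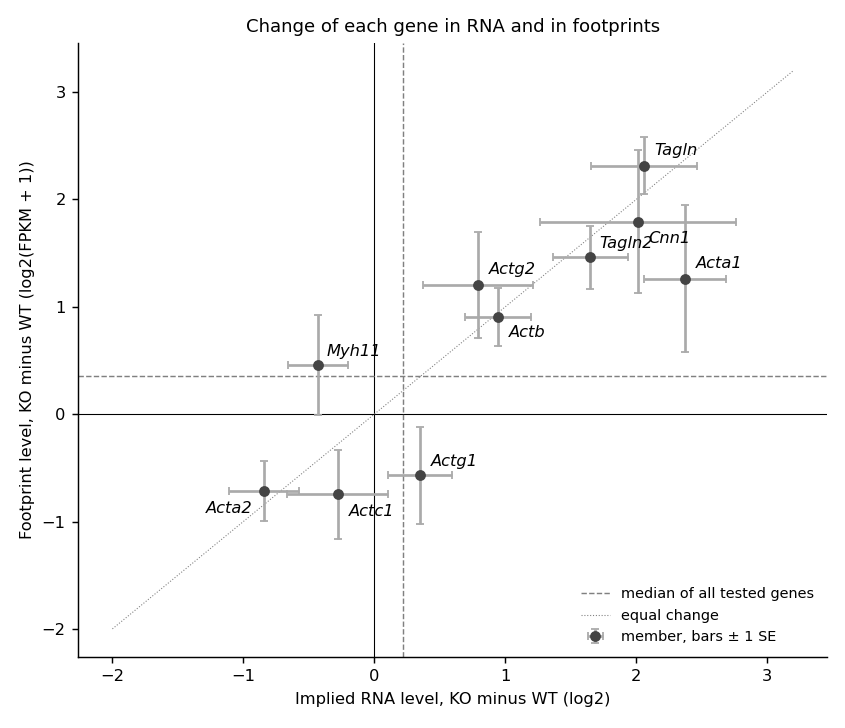
KO minus WT difference of each gene in the implied RNA level (horizontal axis, log2) and the footprint level (vertical axis, log2(FPKM + 1)), with bars of 1 SE, dashed lines at the medians of all tested genes (0.22 and 0.36) and a dotted line of equal change. Tagln, Tagln2, Cnn1 and Acta1 lie in the upper right, Acta2 and Actc1 in the lower left, and Acta1 lies below the dotted line.

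Ordered by footprint level in KO, Actc1 came first and Actb second. Acta2 and Tagln2 overlapped next, then Acta1 and Tagln, then Actg2, Cnn1 and Myh11, with Actg1 last. In WT, Actc1 was followed by Actb and Acta2, which overlapped, then by Tagln2. Acta1 and Tagln overlapped below it, as did Actg1, Actg2 and Myh11, and Cnn1 was last.

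The 6 actin genes together read 97778 and 101771 FPKM of footprints in KO, against 140007 and 179171 FPKM in WT. That was 5.37% and 4.57% of the summed FPKM of protein-coding genes in KO, against 7.16% and 8.91% in WT. Their RNA levels summed to 9307 and 6813 FPKM in KO and 9092 and 8981 FPKM in WT, with overlapping groups. As a share of the RNA of protein-coding genes this was 1.88% and 1.75% in KO, against 2.56% and 2.32% in WT. Actc1 made up 88.8% and 91.0% of actin footprints in KO, against 94.4% and 95.8% in WT. Its share of actin RNA was 84.5% and 84.7% in KO, against 90.6% and 90.4% in WT. Both KO libraries were thus lower than both WT libraries, with shares of RNA that hardly varied within a group.

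Of the other actins Actb held the largest share in both KO libraries, while in WT replicate 2 Acta2 held more of the footprints than Actb. Actb held 8.01% and 6.19% of actin footprints in KO, against 3.12% and 1.796% in WT, and 7.65% and 7.75% of actin RNA in KO, against 3.59% and 3.47% in WT. Acta1 held 1.95% and 1.89% of actin RNA in KO, against 0.250% and 0.427% in WT, but only 0.320% and 1.01% of actin footprints in KO, against 0.102% and 0.217% in WT. Acta2 held 1.93% and 1.70% of actin RNA in KO, against 2.76% and 2.97% in WT, and its share of footprints overlapped between groups. For Actc1, Actb and Acta1 the exact two-sided permutation p was 0.333 in both measures, the smallest that 2 against 2 libraries can give.

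**Figure D3:**
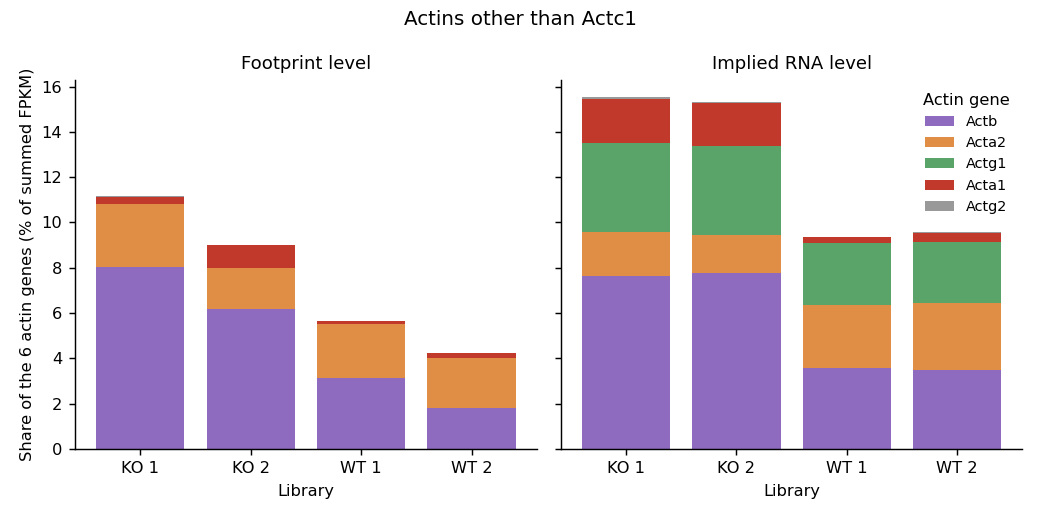
Share of the 5 actin genes other than Actc1 in the summed FPKM of the 6 actin genes, in percent, for footprints (left) and the implied RNA level (right), with a stacked bar per library. Actb takes the largest part of every KO bar, and Acta1 is thicker in the KO than in the WT bars for RNA.

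Translation efficiency did not change by the test for any member (limma adjusted p 0.845 to 0.998), and no member had an unadjusted p under 0.05. Over all 12529 genes limma called 0% higher and 0% lower in KO (4.68% and 1.38% by unadjusted p under 0.05, or 586 and 173 genes), and the fit with replicate numbers as a block called 126 higher and 52 lower. Acta2 had a TE of 15.2 and 15.7 in KO, against 13.4 and 14.8 in WT, and Myh11 4.95 and 4.22 in KO, against 3.48 and 1.70 in WT. These 2 members were the ones wholly higher in KO, where 24% of all tested genes were. Actg1 was the only member wholly lower in KO, where 12% of all tested genes were, with a TE of 0.0249 and 0.0458 in KO and 0.0569 and 0.0760 in WT.

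The spread of TE between KO libraries was wide for Acta1 and Cnn1. Acta1 had a TE of 1.73 and 7.94 in KO, against 6.28 and 10.1 in WT. Cnn1 had 0.918 and 15.0 in KO, against 4.67 and 3.22 in WT. The TE difference was -1.11 for Acta1 (interval -2.94 to 0.72) and -0.06 for Cnn1 (interval -2.95 to 2.83), and the Cnn1 interval is the widest of the members. Tagln had a TE of 5.42 and 9.61 in KO, against 8.11 and 4.47 in WT, and Tagln2 8.25 and 10.4 in KO, against 13.6 and 8.16 in WT. Their intervals were -1.004 to 1.53 and -1.30 to 0.93.

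Within a library the members covered nearly the whole range of TE. Actg1 was near the bottom of all tested genes, at the 0.423 and 0.383 percentile in KO and the 0.487 and 0.814 percentile in WT. How reads that fit several actin genes were counted is not given, so the TE of Actg1 is uncertain. Actc1, the most abundant, lay at the 87.2 and 91.8 percentile in KO and the 94.0 and 97.6 percentile in WT. Acta2 stayed between the 91.2 and 94.9 percentile in all 4 libraries. Actc1 had a TE of 11.05 and 16.1 in KO, against 16.0 and 21.1 in WT, and Actb 11.0004 and 11.9 in KO, against 13.4 and 10.3 in WT, with overlapping groups for both. Actg2 had 8.76 and 9.01 in KO, against 9.16 and 4.54 in WT.

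**Figure D4:**
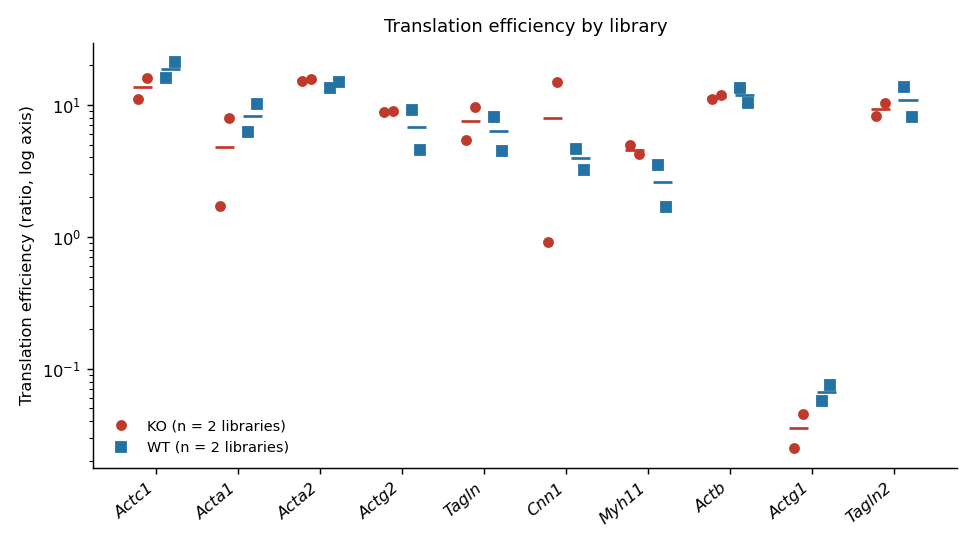
Translation efficiency (the authors' ratio, log axis) of the 10 genes, with KO libraries as circles, WT libraries as squares and bars at the mean of 2 libraries. Actg1 lies far below the other members in all libraries, and the KO libraries of Acta1 and Cnn1 lie far apart.

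Genes that work with actin were read from 8 lists with 149 different tested genes besides the members. Of these, 2 rose and 0 fell in footprints, and 20 rose and 3 fell in RNA, while none was called in TE. Over all tested genes 0.253% were called higher and 0.126% lower in footprints, and 4.2% and 1.53% in RNA. Of the 20 that rose in RNA, 12 stood on the myofibroblast list. Without limma's trend 3 of the 149 rose in RNA and none fell, where 50 rose and 17 fell of all 12529 tested genes. Of the named RNA calls on these lists, those of Ltbp2 and Tnc held without the trend and the others did not. No footprint call held when any 1 library was left out, in fits where no tested gene at all passed.

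Of 22 tested smooth muscle contractile genes, 4 rose and 1 fell in RNA, and none was called in footprints. The list's median change was 0.78 for RNA and 0.89 for footprints, against 0.22 and 0.36 over all tested genes. Tpm2, a tropomyosin that lies along actin filaments, read 94.5 and 49.1 FPKM of RNA in KO, against 11.9 and 15.2 FPKM in WT, a rise of 5.06-fold (limma adjusted p = 0.0261). Footprints stood at 171 and 156 FPKM in KO, against 32.9 and 12.1 FPKM in WT (adjusted p = 0.107). Actn1, a non-muscle and smooth muscle crosslinker of actin, rose 2.98-fold in RNA, and Synm, the intermediate filament protein synemin, 3.65-fold (limma adjusted p = 0.0463 and 0.0394). Csrp1, a LIM protein of smooth muscle that was named after its values were seen, had an RNA change of 1.33 (limma adjusted p = 0.0444). Smtn, the smooth muscle protein smoothelin, fell 2.64-fold in RNA, to 32.5 and 45.7 FPKM in KO, against 95.1 and 108 FPKM in WT (limma adjusted p = 0.0340). The Synm call was lost without KO replicate 1 and the Csrp1 call without WT replicate 1, and the Actn1 call with median-ratio scaling.

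**Figure D5:**
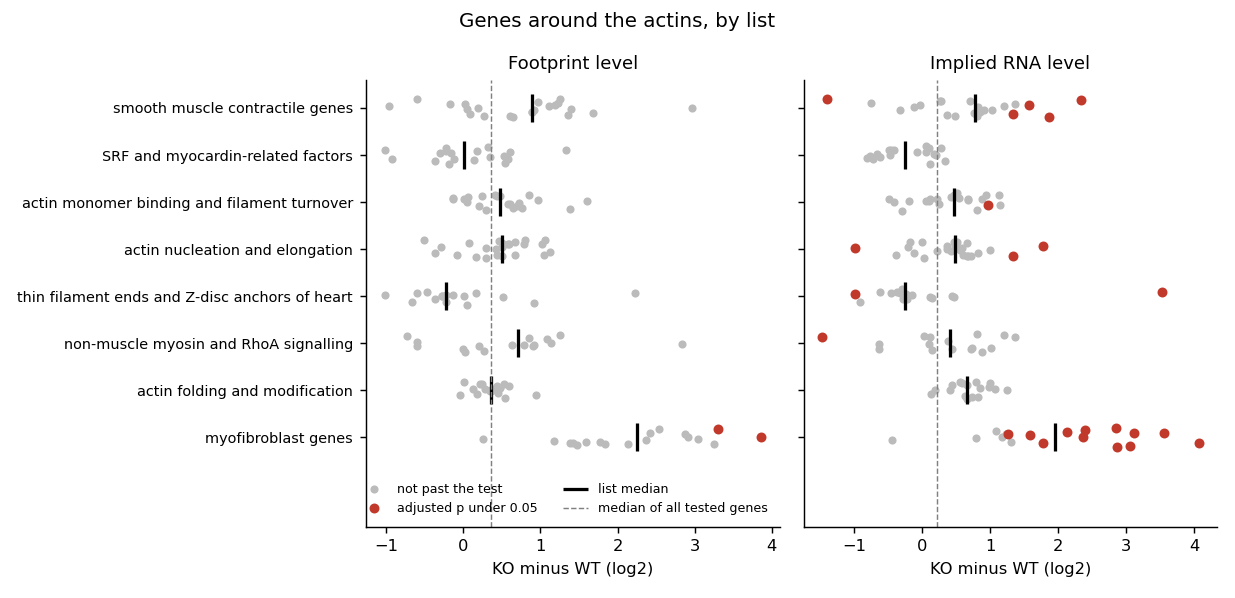
KO minus WT difference (log2) of each tested gene on 8 lists in footprints (left) and the implied RNA level (right), with genes past limma's test in red, others in grey, a black line at each list's median and a dashed line at the median of all tested genes. Medians of the myofibroblast genes lie at 2.25 and 1.95, those of the SRF list at 0.01 and -0.25, and red points lie mainly in the RNA panel.

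Serum response factor, its myocardin-related partners and other heart transcription factors showed no called gene among 18 tested in any measure. Their median change was 0.01 for footprints and -0.25 for RNA, below the medians of all genes. Srf itself differed by -0.18 in footprints and 0.34 in RNA, and Myocd, the smooth muscle and cardiac coactivator, by -0.22 and -0.78. Foxo4, a forkhead factor, read 31.3 and 29.6 FPKM of footprints in KO, against 14.7 and 8.98 FPKM in WT (limma adjusted p = 0.235). Its RNA level lay the other way, at 8.45 and 10.5 FPKM in KO, against 14.2 and 15.8 FPKM in WT (log2 -0.67, limma adjusted p = 0.122). Nkx2-5, the cardiac homeobox factor, read 28.2 and 28.8 FPKM in KO, against 54.1 and 64.1 FPKM in WT (limma adjusted p = 0.225), while its RNA level overlapped between groups.

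Among genes that turn actin filaments over, 1 of 21 rose in RNA, near the 4.2% of all tested genes. It was Limk2, a kinase that inactivates cofilin, at 1.95-fold (limma adjusted p = 0.0473). Of 25 genes that nucleate and lengthen filaments, 2 rose and 1 fell in RNA. Diaph3, a formin, rose 3.43-fold at low levels, with 2.34 and 2.60 FPKM in KO and 0.835 and 0.622 FPKM in WT (limma adjusted p = 0.0446). Enah, which protects growing filament ends, rose 2.53-fold (limma adjusted p = 0.0491). Lmod2, the leiomodin that lengthens thin filaments of the heart, fell 1.99-fold in RNA, to 104 and 100.0 FPKM in KO, against 185 and 223 FPKM in WT (limma adjusted p = 0.0486). Its footprint level overlapped between groups, at 470.0 and 840 FPKM in KO and 688 and 457 FPKM in WT. Limk2 and Lmod2 lost their calls without either WT replicate and with the replicate block (adjusted p = 0.0589 and 0.0828), Enah without WT replicate 1, and Diaph3 without KO replicate 1 or WT replicate 2. Median-ratio scaling ended the calls of Limk2, Diaph3 and Enah (adjusted p = 0.0688, 0.0595 and 0.0552). With a library left out, the log2 change was 0.92 to 1.01 for Limk2, 1.56 to 1.99 for Diaph3, 0.96 to 1.71 for Enah and -1.13 to -0.86 for Lmod2. The median changes of these lists were 0.47 and 0.48 for RNA.

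On the list of thin filament ends and Z-disc anchors, Xirp2 rose and Lmod2 fell among 16 tested genes, with medians of -0.23 for footprints and -0.26 for RNA. Xirp2, a repeat protein that binds actin at the intercalated disc, read 461 and 162 FPKM of RNA in KO, against 23.5 and 23.9 FPKM in WT, a rise of 11.5-fold (log2 3.53, limma adjusted p = 0.0230). Leaving out KO replicate 1 gave a log2 change of 2.77, and leaving out KO replicate 2 gave 4.28. Of 16 genes of non-muscle myosin and RhoA signalling, 1 fell in RNA, Myh14, a non-muscle myosin heavy chain, at 2.78-fold (limma adjusted p = 0.0276). None of 17 genes that fold or modify actin was called. These, among them subunits of the CCT chaperonin, had medians of 0.35 for footprints and 0.66 for RNA. Of the 17, 14 lay wholly above WT in RNA, where 44.2% of all tested genes did. Cct5 read 128 and 80.3 FPKM of RNA in KO, against 44.9 and 52.1 FPKM in WT (limma adjusted p = 0.0679), and Cct7 108 and 63.2 FPKM in KO, against 39.8 and 44.1 FPKM in WT (limma adjusted p = 0.0901).

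Genes of activated fibroblasts, cells known to take up Acta2, gave the most calls. Of 18 tested, 12 rose in RNA and 2 in footprints, and 17 lay wholly above WT in footprints. Over all tested genes these shares were 4.2%, 0.253% and 39.5%. Cthrc1, a secreted collagen-associated protein, rose 7.29-fold in RNA (limma adjusted p = 0.0217), and Ltbp2, a matrix protein, 11.8-fold (limma adjusted p = 0.0138). Thbs4, a thrombospondin, rose 16.8-fold and Tnc, tenascin C, 8.69-fold in RNA (limma adjusted p = 0.0192 and 0.0138). For Thbs4, leaving out WT replicate 1 gave a log2 change of 3.32, and leaving out WT replicate 2 gave 4.81. Ccn2, a matricellular protein, read 998 and 288 FPKM of RNA in KO, against 41.1 and 101 FPKM in WT, and rose 8.30-fold (limma adjusted p = 0.0473), with a log2 change of 2.16 and 3.95 when KO replicate 1 or 2 was left out, and of 2.40 and 3.705 when WT replicate 1 or 2 was. The footprint calls, of Cthrc1 at 9.86-fold and Ccn2 at 14.5-fold (limma adjusted p = 0.0151 and 0.0369), were lost without any single library, in fits that called 0 of 15031 genes. The log2 change was then 3.15 to 3.45 for Cthrc1 and 3.25 to 4.47 for Ccn2. Acta2 is not on this list, and its values were lower in both KO libraries.

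Summed marker levels of several cell types were higher in KO. The 10 fibroblast markers summed to 50373 and 61930 FPKM of footprints in KO, against 24585 and 20854 FPKM in WT, and to 2295 and 1666 FPKM of RNA in KO, against 1101 and 1466 FPKM in WT. Of these, 9 lay wholly higher in KO in footprints (median 1.21), but in RNA 4 lay wholly higher and 1 lower (median 0.17). The collagen genes Col1a1 and Col3a1 are the highest of the list, with footprint changes of 1.48 and 1.18 and RNA changes of 1.09 and 0.79, none past the test. The 10 endothelial markers summed to 3646 and 4779 FPKM of footprints in KO, against 3006 and 2443 FPKM in WT, and the 10 macrophage markers to 1001 and 1956 FPKM in KO, against 579 and 970 FPKM in WT. Endothelial markers lay wholly higher for 7 of 10 in footprints (median 0.58) and 4 in RNA (median 0.14), with Cdh5, a cadherin of vessel walls, at 0.61 and Esam, an adhesion molecule, at 0.42 in footprints. Macrophage markers lay wholly higher for 4 of 10 in footprints and 9 in RNA (median 1.04), with the complement gene C1qb at 1.06 and the lysozyme gene Lyz2 at 1.43 in RNA, of which Lyz2 passed (limma adjusted p = 0.0303). The RNA sum was 808 and 758 FPKM in KO, against 637 and 705 FPKM in WT, for endothelial markers. For macrophage markers it was 279 and 222 FPKM in KO, against 120 and 114 FPKM in WT. Over all tested genes 39.5% lay wholly higher in footprints and 44.2% in RNA. No marker on these lists was listed at 0 in all libraries. Their part in the rises of Tagln, Tagln2 and Acta1 was not tested.

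Sums over other mural cell markers were lower or overlapped. The 6 vascular smooth muscle markers that are not members summed to 454 and 390 FPKM of footprints in KO, against 649 and 486 FPKM in WT, and to 51.3 and 77.1 FPKM of RNA in KO, against 125 and 135 FPKM in WT. Smtn made up 221 and 189 FPKM of the footprint sum in KO, against 429 and 372 FPKM in WT, and the rest of that sum overlapped between groups. Of the RNA sum it made up 32.5 and 45.7 FPKM in KO, against 95.1 and 108 FPKM in WT. The rest of the RNA sum overlapped as well. With the members on that list, 9 of the vascular smooth muscle markers were tested. Of these, 4 lay wholly higher in KO and 2 lower in footprints (median 0.46), and 4 higher and 4 lower in RNA (median -0.43). Over all tested genes 39.5% lay wholly higher and 12.1% lower in footprints, and 44.2% and 18.6% in RNA. Sums of the 10 pericyte markers, genes of the mural cells of capillaries, overlapped between groups in both measures, at 2280 and 3122 FPKM of footprints in KO and 2353 and 1759 FPKM in WT. Singly, 7 of the 10 lay wholly higher in KO in footprints and 0 lower (median 0.60), and 3 higher and 2 lower in RNA (median 0.07). The highest, the channel subunit gene Abcc9 and the signalling regulator Rgs5, differed by -0.27 and 0.74 in footprints.

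Skeletal muscle markers were looked up because Acta1 is the actin of that tissue. Of 12, 6 passed the filter for footprints, and the summed level of the list was 730 and 872 FPKM in KO, against 153 and 194 FPKM in WT. Casq1, a calcium-binding protein of the sarcoplasmic reticulum, made up 627 and 812 FPKM of it in KO, against 120 and 152 FPKM in WT, and passed the test in both measures (limma adjusted p = 0.0377 for footprints and 0.0138 for RNA). Mybpc2, a myosin-binding protein of fast muscle, rose 4.26-fold in RNA (limma adjusted p = 0.0267). Singly, 2 of the 6 lay wholly higher in KO and 1 lower in footprints, where 39.5% and 12.1% of all tested genes did. In RNA 2 of 5 tested lay wholly higher and 1 lower. The list's medians were 0.52 for footprints and 0.14 for RNA, against 0.36 and 0.22 over all tested genes. The part of these markers in the rise of Acta1 was not tested. Myod1, the defining transcription factor, was listed at 0 in all libraries. The fast myosin genes Myh1, Myh2 and Myh4 did not pass the filter. The 7 epicardial markers summed to 319 and 334 FPKM of footprints in KO, against 180 and 78.9 FPKM in WT, led by Aldh1a2, a retinoic acid enzyme, at 1.34 and the mesothelial gene Msln at 2.30 on the log2 scale. Sums of the 7 erythroid markers overlapped between groups, and the globin genes Hba-a1 and Hba-a2 differed by -0.08 and -0.28.

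Likeness of pattern was measured among 9075 protein-coding genes as the Euclidean distance over 8 centred log2 values, 4 of footprints and 4 of RNA. Nearest to Actc1 were Ppa2, a mitochondrial pyrophosphatase, Tpm1, the main tropomyosin of the heart, and Mpc2, a subunit of the mitochondrial pyruvate carrier, at 0.23 to 0.25, where the median gene lay at 1.55. Tpm1 read 27367 and 29969.7 FPKM of footprints in KO, against 41100.1 and 45865 FPKM in WT. Nearest to Acta2 were Irf2bp2, Gcdh and Pts, at 0.47 to 0.52 with a median of 1.88. Acta1 had no such close neighbour: Upp1, Tinagl1 and Gpatch4 lay at 1.03 to 1.10 with a median of 2.96. Ncapd3, Gaa and S100pbp lay nearest to Myh11, at 0.32 to 0.33 with a median of 1.31. These 4 libraries give a rough measure only.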

How the data were processed

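The authors deposited footprint FPKM and a translation efficiency, a ratio, for 55382 genes in 4 libraries. The build was GRCm38 (mm10) per the submitters' processing notes, which list STAR 2.7.4a and Bowtie 1.3.1 among tools that also include Cufflinks 2.2.1, HTSeq 0.13.5, FastQC 0.11.9 and cutadapt 3.7. Settings and the making of the RNA libraries are not given. Per the labels' protocols, ribosomes were held on the RNA with cycloheximide and the lysate was digested with RNase I. FPKM over the ratio had at most 6 significant digits in 59296 of 59296 quotients and was taken as an RNA level. A TE of 0 was taken as missing.

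Genes with FPKM of at least 1 in at least 2 libraries were tested on log2(FPKM + 1), RNA and TE on log2, with limma 3.58.1 (lmFit, eBayes with trend, two-sided) in R 4.3.3, checked on simulated data. Intervals are at 95%. The values used are not counts, so no count model was used.

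The members, gene lists and tests were chosen with earlier results of these data known. Besides the members, the text names, per list, up to 4 called genes by size of change in footprints and in RNA, or the 2 largest footprint changes where none was called, and the 2 highest markers per list; Csrp1, Srf, Myocd, Nat10, Nppa, Pcsk7 and the skeletal markers other than Casq1 were named after their values were seen. No protein sequences were used. Alternatives were pseudocounts, filters, median-ratio scaling, no trend, fewer genes, replicate numbers as a block and each library left out.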

Additional observations from a re-analysis of the deposited data

How the results depend on the processing

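Members called in footprints (1, Tagln) numbered 0 with a pseudocount of 0.1, without a filter, with median-ratio scaling, without trend and without any single library, and 2 without small RNA genes and unnamed models. In RNA (3) they numbered 0 without trend, where the adjusted p was 0.0528 for Acta1, 0.0729 for Tagln2 and 0.0875 for Tagln, and 3 to 7 in the other settings, with 4 to 7 when a library was left out. Pathway genes called in footprints (2) numbered 1 with a pseudocount of 0.1, 0 without a filter, without trend and without any single library, and 16 without small RNA genes and unnamed models. In RNA (23) they numbered 3 without trend and 18 to 83 when a library was left out. TE gave 0 calls for members and pathway genes in every setting run.

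Same-numbered libraries deviated together at r = -0.056 for footprints, -0.219 for RNA and -0.018 for TE across genes, so the numbers were not taken to pair samples. The replicate block gave 10 pathway genes in footprints and added Cnn1 to the RNA calls of members (adjusted p = 0.0158). Crossed pairs, added after seeing the data, gave 6 members and 75 pathway genes in RNA.

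Of 330 values of members, 297 kept direction and side of the threshold. In footprints the sign turned for Lmod2 with median-ratio scaling (-0.2088), and leaving out a library gave -0.254 to 0.5822 for Lmod2 and -0.0378 to 0.9523 for Myh11. In RNA it turned for Nkx2-5 with median-ratio scaling (-0.0114), and leaving out a library gave -0.2816 to 0.6949. In TE it turned for Acta2 with median-ratio scaling (-0.0174), and leaving out a library gave -0.2249 to 0.1479 for Actb, -0.045 to 0.9692 for Actg2, -0.168 to 0.692 for Tagln, -0.5535 to 0.1831 for Tagln2 and -2.0776 to 1.9546 for Cnn1. The cause was not tested.

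Over all genes, footprint calls (38 higher, 19 lower) numbered 23 and 11 with a pseudocount of 0.1, 23 and 13 without trend, 7 and 1 without a filter, 161 and 50 without small RNA genes and unnamed models, 118 and 25 with the replicate block, and 0 without any single library. RNA calls (526 and 192) numbered 50 and 17 without trend, 1028 and 401 with the replicate block, 2412 and 829 with crossed pairs, 2632 and 1110 without KO replicate 2 and 891 and 269 without WT replicate 2. TE calls (0) numbered 126 and 52 with the replicate block, 23 and 10 without WT replicate 1 and 6 and 2 without WT replicate 2. Depth is unknown, so the counting error of low levels, such as those of Cnn1, Actg2 and Diaph3, cannot be stated.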
